A study of Homo sapiens with 8 samples.

Results

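The genes described here make cholesterol and fatty acids. They were read in 2 human esophageal squamous cell carcinoma lines treated to raise or reduce NMR, a long noncoding RNA. A list of 30 gene symbols set the members: each was looked up by symbol in the deposited tables, and all 30 were found, in 1 entry each, among the 48162 genes listed. They divide into 18 sterol enzymes (7 of the mevalonate pathway, 3 that form squalene and lanosterol, and 8 that turn lanosterol into cholesterol), 8 fatty acid genes, and 4 regulators and carriers. RNA sequencing was done on 8 libraries in 4 groups of 2 libraries, 1 from KYSE70 and 1 from KYSE450 in each group. The plasmid arm held cells transfected with the plasmid PCDNA3.1 to overexpress NMR and their own controls. The lentiviral arm held cells infected with lentivirus from HEK 293T packaging cells to knock NMR down, and their own controls. All groups were grown in medium with fetal bovine serum, itself a source of cholesterol and lipids, at passages 5 to 10. The labels do not give the hairpin, the clone or the days between delivery and harvest. No gene in the tables is named NMR, and its own level was not analysed here.

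Cells make cholesterol from acetyl-CoA through mevalonate, isoprenyl phosphates, squalene and lanosterol, and make fatty acids from the same acetyl-CoA through malonyl-CoA. Both routes are driven by the SREBP transcription factors, which SREBF1 and SREBF2 encode and which are held in the endoplasmic reticulum by the INSIG proteins while sterols are plentiful. When sterols fall, the SREBP proteins are carried to the Golgi apparatus and cleaved, and their released parts raise the genes of both routes; the SREBF2 product acts mainly on sterol genes and that of SREBF1 mainly on fatty acid genes.

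The values are FPKM, reads scaled to the gene's length and the library's total. All 30 members passed the filter of a mean of at least 1 FPKM, as 14311 genes did, and had 47 to 27850 reads each per library. Library totals, inferred from the values, were 26448050 to 38003195 reads. Squamous markers such as KRT5 and KRT6A were high in all 8 libraries, with summed levels of 8 markers of 7620 to 26000 FPKM, but ITGB4 stood at no more than 1.58 FPKM in KYSE450 against at least 117 FPKM in KYSE70. KRT14 stood at 3.2, 5.08, 3.57 and 38.3 FPKM in KYSE70 against 371 to 1210 FPKM in KYSE450. Summed markers of fibroblasts, 27.1 to 52.3 FPKM, came mostly from COL1A1, and DCN and PDGFRB were at or near 0. Immune markers summed to 0.226 to 0.987 FPKM, endothelial markers to 0.733 to 4.29, and adipose and liver markers to 0.116 to 1.03. The KYSE70 knockdown library stood apart: 8.63% of its summed FPKM came from mitochondrial genes against 3.84% to 5.75% in the other 7 libraries, and its difference from its control fell with the GC content of genes. For knockdown, the KYSE450 value beside each KYSE70 value is the one that does not use this library. Without it, the cell line median of fatty acid genes was -0.46 in place of -0.69, and the interaction of line and arm called 4 members higher and 1 lower in place of 1 and 0, where 14.4% of all genes were called in place of 6.88%.

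The promoters of 5 members are shown. LSS, NSDHL, DHCR7 and SREBF1 were lower in the lentiviral arm and have 154 to 234 exon-free bases in the runs printed. MSMO1 had the highest knockdown difference. Each run is the part of the 250 bases before a RefSeq start (GRCh38.p14, read 5′ to 3′ on the gene's strand) that no annotated exon of GENCODE release 29 covers. Capitals mark CCAAT, or ATTGG where it lies on the other strand.
LSS: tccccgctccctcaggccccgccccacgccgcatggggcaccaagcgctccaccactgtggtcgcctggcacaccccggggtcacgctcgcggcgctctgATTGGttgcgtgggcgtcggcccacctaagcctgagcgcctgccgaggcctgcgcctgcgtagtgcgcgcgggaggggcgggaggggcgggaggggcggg
NSDHL: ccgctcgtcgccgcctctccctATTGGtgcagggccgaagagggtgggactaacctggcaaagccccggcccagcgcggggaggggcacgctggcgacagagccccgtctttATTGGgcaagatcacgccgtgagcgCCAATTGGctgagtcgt
DHCR7: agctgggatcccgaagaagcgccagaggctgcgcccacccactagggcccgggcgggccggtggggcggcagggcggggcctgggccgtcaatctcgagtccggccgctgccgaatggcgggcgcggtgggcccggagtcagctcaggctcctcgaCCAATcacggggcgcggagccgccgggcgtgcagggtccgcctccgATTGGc
SREBF1: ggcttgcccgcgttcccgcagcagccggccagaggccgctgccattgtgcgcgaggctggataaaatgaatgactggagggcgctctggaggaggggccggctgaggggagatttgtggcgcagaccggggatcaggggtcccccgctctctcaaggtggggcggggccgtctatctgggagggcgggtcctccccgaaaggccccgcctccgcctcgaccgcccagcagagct
MSMO1: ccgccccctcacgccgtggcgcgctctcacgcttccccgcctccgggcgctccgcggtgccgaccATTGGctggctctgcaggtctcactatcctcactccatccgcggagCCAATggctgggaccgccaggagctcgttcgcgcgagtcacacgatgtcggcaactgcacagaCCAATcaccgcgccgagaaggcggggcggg
The LSS run, of 200 bases at chr21:46228825-46229024 (minus strand), holds 1 CCAAT. The NSDHL run, of 154 bases at chrX:152830813-152830966 (plus strand), holds 4, of which a pair on opposite strands overlaps. The DHCR7 run, of 208 bases at chr11:71448436-71448643 (minus strand) and 1 of the starts listed for that gene, holds 2. The run at another DHCR7 start, of 250 bases at chr11:71449044-71449293, holds 0 and is not printed. The SREBF1 run, of 234 bases at chr17:17837003-17837236 (minus strand), holds 0, and the MSMO1 run, of 204 bases at chr4:165327419-165327622 (plus strand), holds 3. CCAAT is bound by NF-Y, a factor that acts beside SREBP proteins at many sterol genes. From 250 bases before to 50 after the start, and on either strand, CCAAT was found in at least 1 entry of 20 of the 26 members with an entry (76.9%), against 39.7% of 27305 genes. Sterol enzymes held it in 13 of 15 and fatty acid genes in 4 of 7. The sterol regulatory element searched as TCACNCCAC was found in 1 member, SREBF2, and in 1.39% of genes. The E-box CACGTG was found in LSS, SC5D and INSIG1, 3 of 26 members, and in 8.77% of genes. These matches describe letters, and genes with several starts had more chances to match.

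Cell line was compared first, because it set the largest differences among the members. KYSE450 had more SREBF1 and FASN and more of a set of sterol enzymes, whereas KYSE70 had more of the desaturases FADS1 and FADS2, the elongase ELOVL6 and another set of sterol enzymes. In limma, with Benjamini-Hochberg adjustment over all genes tested and a threshold of 0.05, 12 of 30 members were higher in KYSE450 and 14 were lower. Of all genes, 33.8% were higher and 32.3% lower (66% in either direction). In bulk RNA, fewer cells of a kind and less RNA per cell cannot be told apart. Sterol enzymes split evenly (8 higher, 7 lower, median log2 difference 0.16), and fatty acid genes leaned to KYSE70 (3 higher, 5 lower, median -0.69); the median over all genes was 0.02. Log2 differences are on the log2(FPKM + 1) scale throughout, which understates the change of low genes.

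Values for each gene follow in the order plasmid control, overexpression, lentiviral control and knockdown. SREBF1 (ENSG00000072310, chromosome 17) stood at 147, 158, 85.1 and 151 FPKM in KYSE70 and at 466, 638, 291 and 301 FPKM in KYSE450. All 4 KYSE450 libraries lay above all 4 of KYSE70, and the difference was 1.60 (SE 0.19, limma adjusted p = 0.000111). SREBF2 (ENSG00000198911, chromosome 22) went the other way, at 104, 94.3, 102 and 113 FPKM in KYSE70 and 70.2, 77.1, 70.3 and 65.7 FPKM in KYSE450. Its libraries did not overlap between lines either, and the difference was -0.54 (SE 0.09, limma adjusted p = 0.00107). INSIG1, the retention protein, stood at 37.8, 30.9, 17.2 and 44.3 FPKM in KYSE70 and at a narrow 18.8, 17.9, 17.1 and 18.5 FPKM in KYSE450. It was higher in KYSE70 over all libraries (-0.74, SE 0.25), but the lentiviral control of KYSE70 lay within the KYSE450 range. STARD4, a carrier of cholesterol between membranes, was not called between lines (-0.37, SE 0.19), at 30.7, 32.5, 31.5 and 60.2 FPKM in KYSE70 and 32.9, 41.5, 21.8 and 21.8 FPKM in KYSE450.

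In the mevalonate pathway, 4 of 7 genes were higher in KYSE450 and 1 was lower. HMGCS1, which condenses acetoacetyl-CoA with acetyl-CoA, was the lower one, at 109, 96.6, 63.3 and 83 FPKM in KYSE70 and 39.0, 33.6, 39.7 and 39.2 FPKM in KYSE450 (-1.17, SE 0.11). MVD, the decarboxylase that makes isopentenyl diphosphate, stood at 50.6, 42.2, 41.0 and 25.9 FPKM against 72.9, 73.5, 88.3 and 73.4 FPKM in KYSE450 (0.97, SE 0.15). FDPS, which makes farnesyl diphosphate, stood at 8.42, 8.15, 7.38 and 5.68 FPKM against 13.9, 14.3, 13.2 and 14.8 FPKM (0.85, SE 0.11). These 3 genes showed no overlap between the lines. ACAT2, the thiolase of the opening step, and the mevalonate kinase MVK were also higher in KYSE450 (0.75, SE 0.12, and 0.37, SE 0.12), with overlapping libraries. PMVK, the next kinase, and IDI1, an isomerase, were not called (0.45, SE 0.23, and -0.12, SE 0.15).

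At the squalene and lanosterol steps, the lines parted within the pathway. SQLE, the squalene epoxidase, stood at 98.2, 82.2, 49.2 and 61.0 FPKM in KYSE70 and at 28.2, 27.2, 26.6 and 31.8 FPKM in KYSE450, with no overlap (-1.28, SE 0.12). LSS, the lanosterol synthase that takes the product of SQLE, stood at 54.1, 47.3, 25.2 and 25.3 FPKM in KYSE70 and at 84.0, 85.8, 48.2 and 54.1 FPKM in KYSE450 (0.86, SE 0.09). Its lines overlapped across arms but not within either arm. FDFT1, the squalene synthase, was lower in KYSE450 (-0.43, SE 0.12), at 95, 84.3, 76.4 and 73.0 FPKM in KYSE70 and 57.0, 57.3, 74.5 and 54.8 FPKM in KYSE450. The lines overlapped through the lentiviral control of KYSE450 alone.

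The steps after lanosterol held the widest differences, with 3 of 8 genes higher in KYSE450 and 4 lower. SC5D, the lathosterol desaturase, stood at 35.9, 33.4, 31.4 and 46.8 FPKM in KYSE70 and at 8.03, 9.31, 8.60 and 8.26 FPKM in KYSE450 (-1.97, SE 0.14). MSMO1, the C-4 methylsterol oxidase, stood at 47.4, 38.3, 18.6 and 59.0 FPKM in KYSE70 and at 7.59, 9.72, 7.70 and 15 FPKM in KYSE450 (-1.86, SE 0.34). CYP51A1, the lanosterol demethylase that acts ahead of MSMO1, ran opposite at 1.85, 1.74, 2.14 and 1.31 FPKM in KYSE70 and 6.44, 4.88, 9.04 and 10.6 FPKM in KYSE450 (1.62, SE 0.14). None of these 3 genes overlapped between lines, although CYP51A1 was the member with the fewest reads (47 to 467 per library). HSD17B7, the 3-keto reductase of the same demethylation complex, was at 8.95, 6.88, 9.80 and 11.9 FPKM in KYSE70 and 26.5, 28.3, 32.7 and 24.7 FPKM in KYSE450 (1.5, SE 0.13). NSDHL, the dehydrogenase of that complex, and EBP, the sterol isomerase, were higher in KYSE70 (-0.94, SE 0.16, and -1.06, SE 0.13). DHCR7, which makes cholesterol from 7-dehydrocholesterol, was higher in KYSE450 (1.0, SE 0.11), and TM7SF2, a C14 sterol reductase, was not called (-0.06, SE 0.23).

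Among fatty acid genes, the enzymes that build palmitate were higher in KYSE450 and those that extend, desaturate or use fatty acids were higher in KYSE70. FASN, the fatty acid synthase, stood at 219, 228, 150 and 167 FPKM in KYSE70 and at 335, 281, 316 and 279 FPKM in KYSE450, with no overlap (0.68, SE 0.11). ACLY, which makes cytosolic acetyl-CoA, was at 119, 119, 102 and 83.8 FPKM in KYSE70 and 159, 139, 171 and 153 FPKM in KYSE450 (0.56, SE 0.11). ACACA, the acetyl-CoA carboxylase, was at 69.1, 73.1, 82.6 and 126 FPKM against 112, 104, 130 and 112 FPKM (0.42, SE 0.14). The lines did not overlap for ACLY, and for ACACA the KYSE70 knockdown library lay inside the KYSE450 range. FADS2, the delta-6 desaturase, stood at 80.4, 60.5, 40.5 and 44.5 FPKM in KYSE70 and at 21.4, 18.9, 8.26 and 8.85 FPKM in KYSE450 (-1.97, SE 0.12). FADS1, the delta-5 desaturase beside it on chromosome 11, was at 206, 189, 154 and 144 FPKM against 111, 109, 87.2 and 75.5 FPKM (-0.85, SE 0.09). The lines did not overlap for either desaturase. ELOVL6, which extends palmitate, stood at 44.1, 29, 30.4 and 21.4 FPKM in KYSE70 and at 9.16, 12.0, 10.0 and 10.3 FPKM in KYSE450 (-1.46, SE 0.17). SCD, the stearoyl-CoA desaturase, was at 144, 131, 85.9 and 172 FPKM against 76.9, 96.8, 77.0 and 62.4 FPKM (-0.73, SE 0.21), where the lentiviral control of KYSE70 fell inside the KYSE450 range. LPIN1, a phosphatidate phosphatase, was at 22.8 to 48.8 FPKM in KYSE70 and 16.5 to 20.7 FPKM in KYSE450 (-0.64, SE 0.17). Every difference in the fatty acid group passed limma's adjusted threshold, the largest adjusted p being 0.0292 for ACACA.

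Counted by overlap, all 4 libraries of KYSE450 lay above all 4 of KYSE70 for 8 members and below for 10, against 24.5% and 24.1% of all genes. With 2 lines and 1 culture history each, the line difference cannot be told apart from other differences between these cultures. Levels of different genes are comparable only as far as the authors' gene lengths go: the lengths implied by the values were 827 to 5362 bases, and that of FASN was 2101 bases against 8565 for its longest GENCODE transcript.

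**Figure D1:**
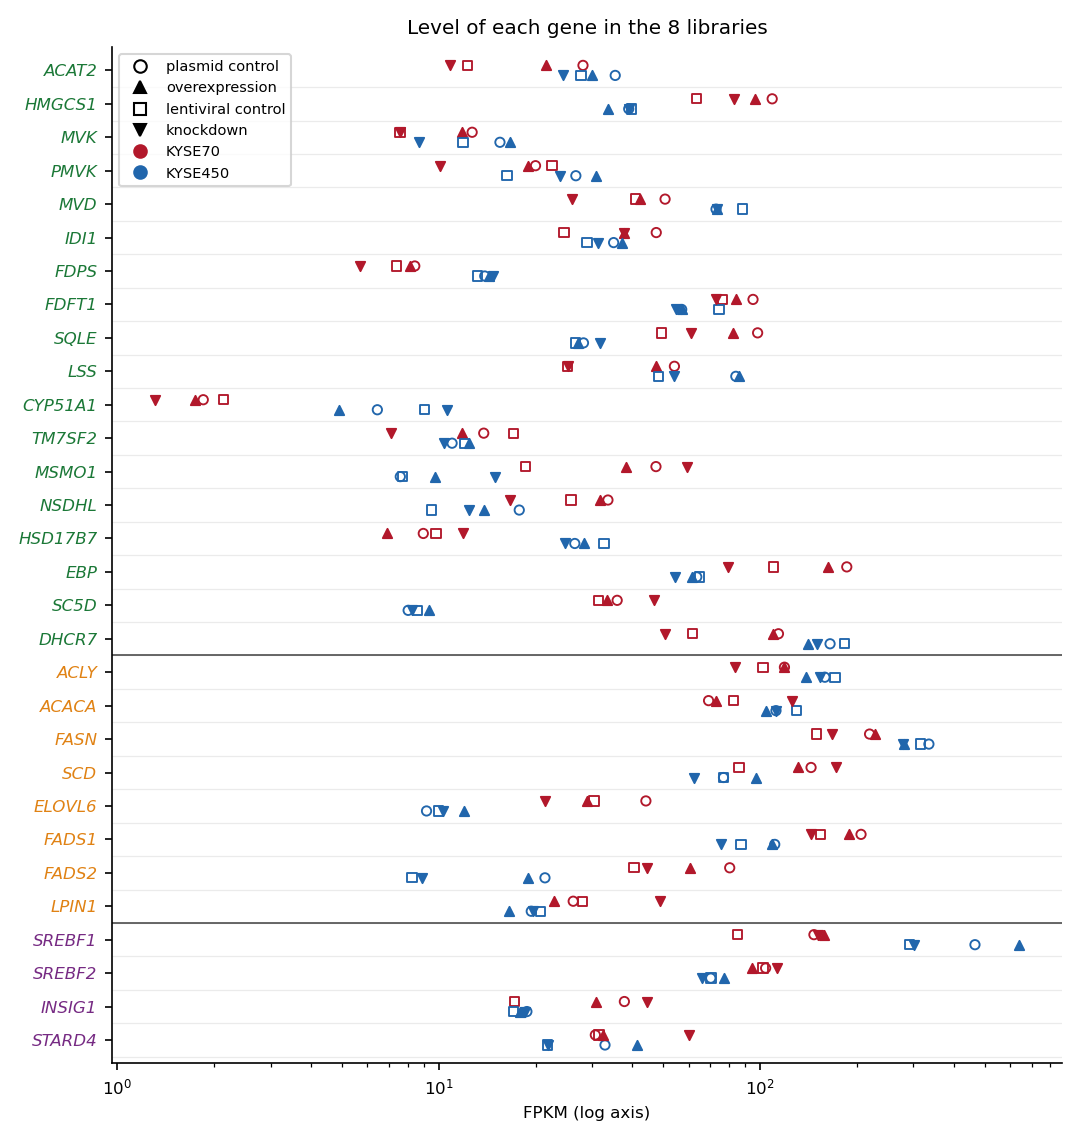
FPKM (log axis) of the 30 genes in the 8 libraries, with KYSE70 in red and KYSE450 in blue, and marker shapes for the 4 groups; gene names are green for sterol enzymes, orange for fatty acid genes and purple for regulators and STARD4. The lines do not overlap for SREBF1, SC5D, FADS2, ELOVL6 or CYP51A1, while the open squares and downward triangles of the lentiviral arm lie left of the plasmid arm for LSS and ACAT2 within each line.

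The delivery arms were compared within lines, with the lentiviral pair of libraries set against the plasmid pair. In the lentiviral arm 9 of 30 members were lower and 0 were higher in limma (adjusted p under 0.05), where 8.95% of all genes were lower and 19% higher (27.9% either way). The 9 were the sterol enzymes LSS, ACAT2, MVK, NSDHL, EBP and DHCR7, the desaturases FADS2 and FADS1, and SREBF1. By list, 6 of 18 sterol enzymes and 2 of 8 fatty acid genes were lower, each list with a median of -0.25, against 0.07 for all genes. SREBF2 was level between arms (0.00, SE 0.09). The arm holds everything that differed between the overexpression and knockdown experiments, the vector, the virus, the controls and the handling, and these cannot be told apart.

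LSS (ENSG00000160285, chromosome 21) showed the arm difference in each line: 54.1 and 47.3 FPKM in the plasmid pair of KYSE70 against 25.2 and 25.3 in the lentiviral pair, and 84.0 and 85.8 FPKM against 48.2 and 54.1 in KYSE450. The difference was -0.85 (SE 0.09, limma adjusted p = 0.00151). FADS2 was at 80.4 and 60.5 FPKM against 40.5 and 44.5 in KYSE70, and at 21.4 and 18.9 FPKM against 8.26 and 8.85 in KYSE450 (-0.92, SE 0.12, limma adjusted p = 0.00234). In both genes the arms did not overlap in either line. ACAT2 was at 28.1 and 21.6 FPKM against 12.3 and 10.8 in KYSE70, and at 35.4 and 29.9 against 27.7 and 24.3 in KYSE450 (-0.68, SE 0.12, limma adjusted p = 0.0071). MVK was at 12.7 and 11.8 FPKM against 7.58 and 7.59 in KYSE70, and at 15.5 and 16.7 against 11.9 and 8.71 in KYSE450 (-0.62, SE 0.12, limma adjusted p = 0.00824). These 4 genes, LSS, FADS2, ACAT2 and MVK, stayed under the threshold when any 1 of the 8 libraries was left out.

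The other 5 lower members depended more on single libraries. NSDHL (33.6 and 31.7 against 25.8 and 16.6 FPKM in KYSE70, 17.8 and 13.8 against 9.50 and 12.4 in KYSE450) and FADS1 did not overlap between arms in either line (-0.56, SE 0.16, and -0.42, SE 0.09). SREBF1 differed by -0.65 (SE 0.19, limma adjusted p = 0.0345), and in KYSE70 its knockdown library, 151 FPKM, lay at the plasmid level while its lentiviral control, 85.1 FPKM, did not. EBP was at 186 and 163 FPKM against 110 and 79.3 in KYSE70, but at 63.5 and 61.3 against 64.7 and 54.4 in KYSE450 (-0.48, SE 0.13). DHCR7 was at 114 and 110 FPKM against 61.5 and 50.5 in KYSE70, and at 165 and 141 against 183 and 150 in KYSE450 (-0.44, SE 0.11). EBP and DHCR7 were therefore low in the lentiviral arm in KYSE70, and their arms overlapped in KYSE450. Leaving out any 1 plasmid-arm library left 4 members called lower, where 11.4% to 13.8% of all genes were called in either direction. Leaving out the KYSE70 knockdown library gave 16 lower and 1 higher (37% of all genes called), and the KYSE70 lentiviral control 12 lower and 2 higher (50.8%). Leaving out the KYSE450 knockdown library gave 5 lower (20.8%), and the KYSE450 lentiviral control 6 (14.7%). With all 8 libraries 27.9% of all genes were called. The lentiviral control was also set against the plasmid control, in a fit that took its spread from all 8 libraries. There 0 members and 0% of all genes were called by limma. In that fit 8 members and 2078 of 14311 genes had an unadjusted p under 0.05, and the median sterol difference was -0.37.

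Line by line, the sterol median of the arm difference was -0.48 in KYSE70, with 16 of 18 genes below 0, and -0.02 in KYSE450, with 10 of 18 below 0. Fatty acid genes had medians of -0.38 and -0.04, and all genes 0.13 and 0.01. By sign, 16 of 30 members were lower in both lines and 3 were higher in both, against 23.5% and 36.6% of all genes. The summed FPKM of the sterol enzymes in KYSE70 was 965 and 847 in the plasmid pair and 606 and 612 in the lentiviral pair, and in KYSE450 it was 714 and 687 against 702 and 642. The fatty acid sums were 907 and 852 against 674 and 807 in KYSE70, and 845 and 777 against 820 and 721 in KYSE450. Libraries of the arms did not overlap, with the lentiviral arm below, for 16 members in KYSE70 (21.5% of all genes) and for 10 in KYSE450 (32.3% of all genes). The lentiviral arm lay above, with no overlap, for HSD17B7, ACACA and LPIN1 in KYSE70 and for HMGCS1, CYP51A1 and LPIN1 in KYSE450, 3 of 30 each, against 42.7% and 35.2% of all genes. In both lines at once the lentiviral arm lay below the plasmid arm for 7 members, MVK, IDI1, LSS, NSDHL, ACAT2, FADS1 and FADS2, against 10.6% of all genes, and above it for LPIN1 (20% of all genes). LPIN1 was at 26.2 and 22.8 FPKM against 28.0 and 48.8 in KYSE70, and at 19.4 and 16.5 against 20.7 and 19.6 in KYSE450.

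The test of whether the arm difference itself differed between lines called DHCR7 (1.11, SE 0.23, limma adjusted p = 0.0311), the 1 member of 30, where 6.88% of all genes were called and 1.6% in its direction. Its arm difference was -1.0 in KYSE70 and 0.12 in KYSE450. EBP (0.82, SE 0.26, limma adjusted p = 0.0913), SQLE (0.77, SE 0.23, adjusted p = 0.0807) and STARD4 (-1.19, SE 0.38, adjusted p = 0.0956) did not pass. STARD4 had the opposite order to DHCR7, with an arm difference of 0.45 in KYSE70, where the knockdown library was high, and -0.73 in KYSE450. The call for DHCR7 was lost (adjusted p 0.0775 to 0.147) without any 1 plasmid-arm library or the KYSE450 lentiviral control.

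The spans of several of these genes, from start to end, overlap that of a neighbour. Whether their exons overlap was not examined, and the strand setting of the counting was not given. Reads shared with a neighbour were therefore not measured. ACAT2 overlaps TCP1 on the other strand, MVK overlaps MMAB, SREBF1 overlaps RAI1, and FADS1 and FADS2 overlap each other. DHCR7 overlaps the antisense gene RP11-660L16.2. That gene was at 1.87 and 2.25 FPKM in the plasmid pair of KYSE70 against 3.06 and 4.0 in the lentiviral pair. In KYSE450 the antisense gene was at 5.05 and 4.62 FPKM against 9.21 and 9.8. FEN1, on the strand of FADS2, stood at 57.2 to 120 FPKM, and its arms did not overlap in either line, with the lentiviral arm below. MMAB, which acts in the making of a vitamin B12 cofactor, was at 17.3 and 17.9 FPKM in the plasmid pair against 9.76 and 8.15 in the lentiviral pair of KYSE70, and at 26.4 and 26.4 against 24.8 and 22.3 in KYSE450. TCP1 was at 457 and 427 FPKM against 421 and 413 in KYSE70 and at 617 and 542 against 848 and 688 in KYSE450, opposite to ACAT2 in the latter. RAI1 was at 49.0 and 57.1 FPKM against 44.8 and 34.5 in KYSE70, and at 53.2 and 47.5 against 32.7 and 32.8 in KYSE450. The part of these overlaps in the differences was not tested.

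**Figure D2:**
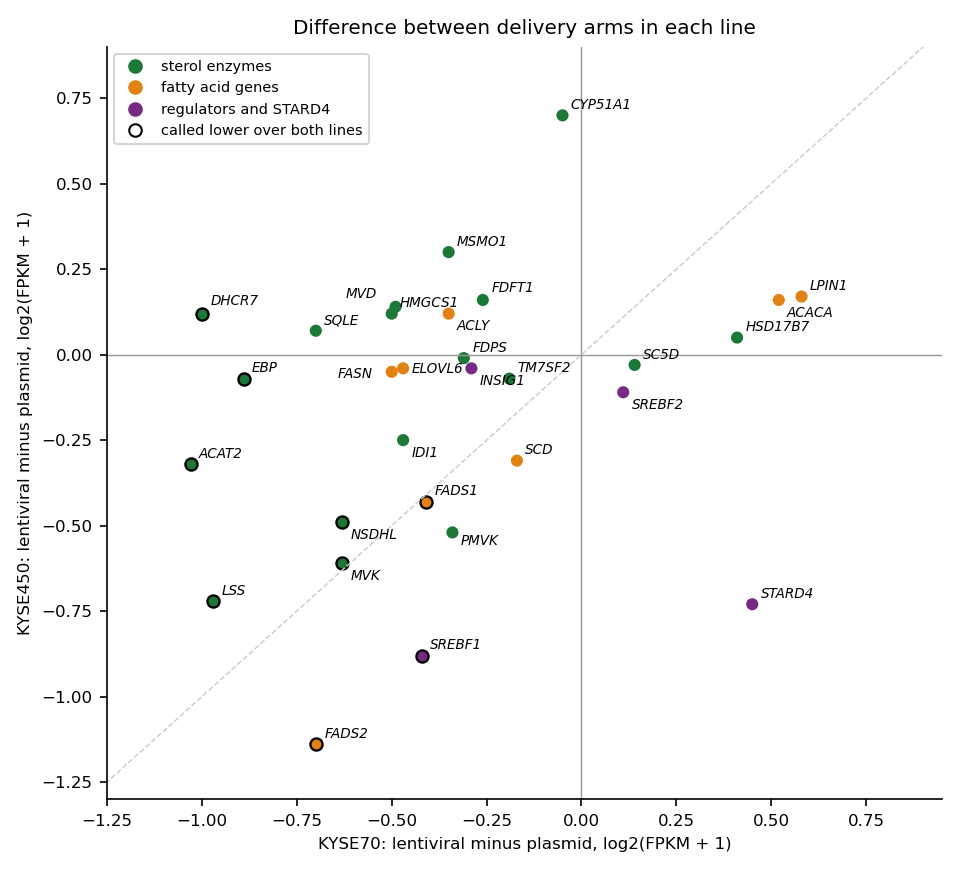
Difference between delivery arms (lentiviral minus plasmid, log2(FPKM + 1)) in KYSE70 on the x axis and in KYSE450 on the y axis, 1 point per gene; black rims mark the 9 genes called lower over both lines and the dashed line marks equal differences. MVK, NSDHL and FADS1 lie near the dashed line, LSS and FADS2 lie far below 0 on both axes, while DHCR7 and EBP lie far left at a KYSE450 difference near 0.

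Overexpression of NMR was compared with the plasmid control in each line. No member was called, as for all genes (0% called by limma, and 0 members by voom on recovered reads, with 148 of 14311 genes and 0 members at an unadjusted p under 0.05). In KYSE70 all 18 sterol enzymes had lower values with overexpression, a median of -0.18, where 48.8% of all genes were lower. In KYSE450 7 of 18 were lower, with a median of 0.02, and 55.5% of all genes were lower. The 7 with lower values in both lines were ACAT2, HMGCS1, SQLE, CYP51A1, NSDHL, EBP and DHCR7, and 27.6% of all genes had lower values in both. Fatty acid genes had medians of -0.13 in KYSE70 and -0.14 in KYSE450, with 6 of 8 lower in each line.

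The KYSE70 differences were small for each sterol enzyme, from -0.04 in FDPS to -0.36 in ACAT2, which was at 28.1 FPKM in the control and 21.6 with overexpression. HMGCS1 was at 109 and 96.6 FPKM in control and overexpression of KYSE70 and at 39.0 and 33.6 in KYSE450, and SQLE at 98.2 and 82.2 and at 28.2 and 27.2. FADS2 was at 80.4 and 60.5 FPKM and at 21.4 and 18.9 (-0.29, SE 0.14, limma adjusted p = 1). MSMO1, at 47.4 and 38.3 FPKM in KYSE70 and at 7.59 and 9.72 in KYSE450, and ELOVL6, at 44.1 and 29 and at 9.16 and 12.0, had opposite signs in the lines. Of the regulators, SREBF1 had higher values with overexpression in both lines, at 147 and 158 FPKM in KYSE70 and 466 and 638 in KYSE450 (0.28, SE 0.22, limma adjusted p = 1). SREBF2 had differences of -0.14 and 0.13, KYSE70 first, and INSIG1 -0.28 and -0.06. The 18 KYSE70 differences rest on the same 2 libraries and are not independent of each other. After trends with GC content and length were removed, the 18 sterol enzymes were still all below 0 in KYSE70, with a median of -0.17. In data simulated for this comparison, 0% of genes changed 2-fold were recovered and 75.8% of genes changed 4-fold.

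Knockdown of NMR was compared with the lentiviral control. No member was called over both lines, as for all genes (0% called by limma, and 0 members by voom, with 1794 of 14311 genes and 5 members at an unadjusted p under 0.05: MSMO1, MVD, TM7SF2, EBP and INSIG1). Sterol enzymes had medians of -0.12 in KYSE70 and -0.03 in KYSE450, and fatty acid genes 0.14 and -0.17. The 4 regulators and carriers had medians of 0.87 and 0.02, so their higher values were in KYSE70.

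MSMO1 (ENSG00000052802, chromosome 4) had the highest difference of the members, at 18.6 and 59.0 FPKM in KYSE70 and at 7.70 and 15 in KYSE450. The log2 differences were 1.61 and 0.87, and 1.24 over both (SE 0.23, limma adjusted p = 0.268). With the 4 lentiviral libraries fitted alone, MSMO1 passed the threshold (limma adjusted p = 0.023), although it did not with all libraries. It also passed with any 1 plasmid-arm library left out. The plasmid arm then adds nothing to the spread, so those fits largely repeat the fit of the lentiviral arm and are not separate support. Leaving out a lentiviral library leaves 1 pair, with an MSMO1 difference of 1.61 in KYSE70 or 0.87 in KYSE450. The KYSE70 lentiviral control, at 18.6 FPKM, was the low library: the plasmid control of that line stood at 47.4 FPKM, below the knockdown library. In KYSE450 the plasmid control, at 7.59 FPKM, stood beside the lentiviral control, and the knockdown library was the high one. Other enzymes of the same demethylation complex did not share the difference: NSDHL had -0.61 and 0.35, and HSD17B7 0.25 and -0.39, KYSE70 first.

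INSIG1 was at 17.2 and 44.3 FPKM in control and knockdown of KYSE70, and at 17.1 and 18.5 FPKM in KYSE450 (1.32 and 0.11; 0.71 over both, SE 0.27, limma adjusted p = 0.377). SREBF1 was at 85.1 and 151 FPKM in KYSE70 and 291 and 301 in KYSE450, and STARD4 at 31.5 and 60.2 FPKM and 21.8 and 21.8. SCD was at 85.9 and 172 FPKM in KYSE70 and 77.0 and 62.4 in KYSE450, and LPIN1 at 28.0 and 48.8 FPKM and 20.7 and 19.6. These 5 genes had differences of 0.78 to 1.32 in KYSE70 and of -0.30 to 0.11 in KYSE450. For MSMO1, INSIG1, SREBF1 and SCD the lentiviral control was the lowest of the 4 KYSE70 libraries, below the plasmid control at 47.4, 37.8, 147 and 144 FPKM. On the low side, TM7SF2 was at 17.1 and 7.08 FPKM in KYSE70 and 12.0 and 10.4 in KYSE450 (-0.68, SE 0.25, limma adjusted p = 0.367). MVD was at 41.0 and 25.9 FPKM and 88.3 and 73.4 (-0.45, SE 0.16, limma adjusted p = 0.361), and EBP at 110 and 79.3 FPKM and 64.7 and 54.4 (-0.36, SE 0.14). PMVK had opposite signs, at 22.5 and 10.1 FPKM in KYSE70 and at 16.3 and 23.9 in KYSE450. TM7SF2 overlaps VPS51 on the same strand, and VPS51 was at 41.2 and 30.4 FPKM in control and knockdown of KYSE70 and at 83.7 and 92.3 in KYSE450.

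**Figure D3:**
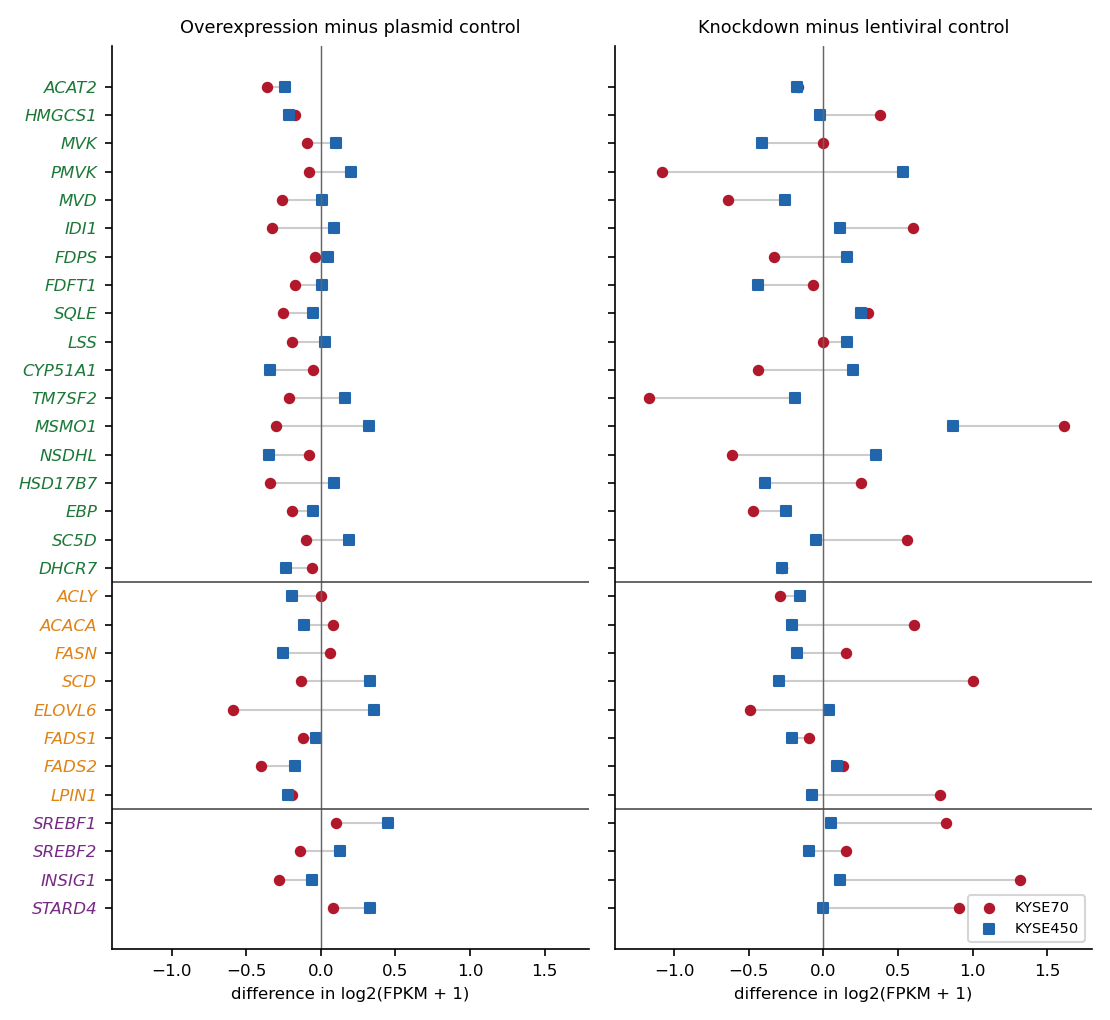
Log2 difference from the matching control for each gene, with overexpression at left and knockdown at right, KYSE70 as red circles and KYSE450 as blue squares, joined by a grey line per gene. The 18 sterol enzymes lie at or left of 0 in KYSE70 under overexpression, and under knockdown MSMO1 lies right of 0 in both lines while INSIG1, SCD, STARD4, SREBF1, LPIN1, ACACA, IDI1 and SC5D lie above 0.5 in KYSE70 and not in KYSE450.

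The knockdown differences of KYSE70 moved with GC content. Across the 29 members with a GC value, Spearman's rho between the difference and the GC content of the longest transcript was -0.51 in KYSE70 and -0.22 in KYSE450; across 13914 genes it was -0.48 and 0.04. These are correlations across genes within a pair of libraries, given as a description. MSMO1 (38.1% GC) and STARD4 (34.2%) lie at the low end, TM7SF2 (64.2%) and MVD (63.7%) at the high end, and SREBF1 (62.8%) is a member with high GC and a higher value. After removal of the GC and length trends, the KYSE70 differences were 1.34 for MSMO1, 1.22 for INSIG1, 1.15 for SREBF1, 0.82 for SCD and 0.60 for STARD4. TM7SF2 was then at -0.65 and PMVK at -0.79, and MVD moved from -0.64 to -0.09. After the same removal, the arm difference of sterol enzymes had a median of -0.62 in KYSE70, with 17 of 18 below 0. In KYSE450 the median was -0.08, with 11 of 18 below 0. Fatty acid genes had medians of -0.52 in KYSE70 and -0.11 in KYSE450. Of all genes, 53.2% were below 0 in KYSE70 and 51.4% in KYSE450.

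**Figure D4:**
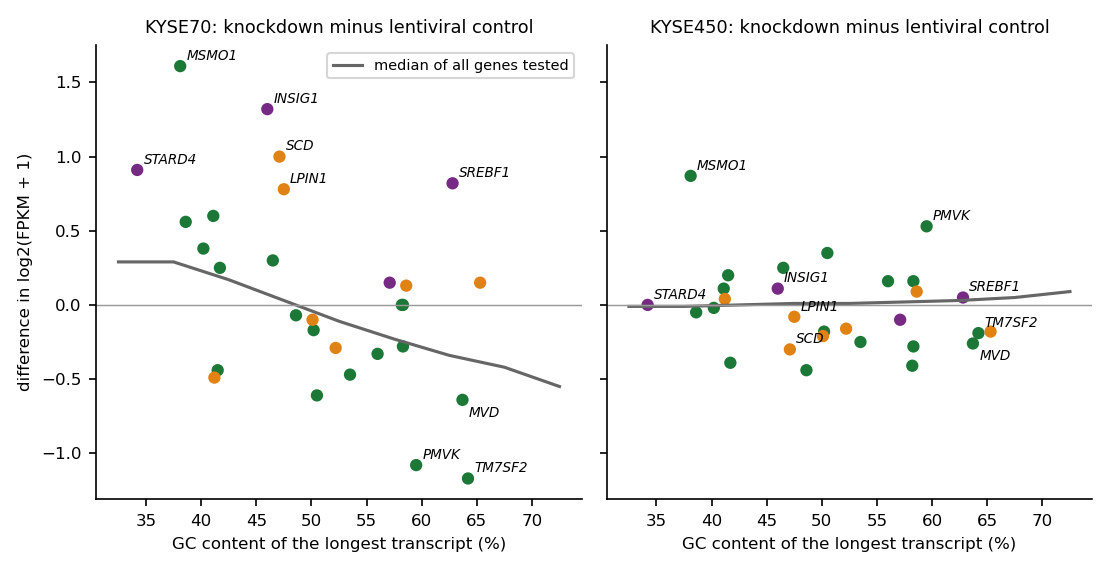
Knockdown difference (log2(FPKM + 1)) against GC content of the longest transcript, in percent, for 29 members in KYSE70 (left) and KYSE450 (right); colours mark sterol enzymes (green), fatty acid genes (orange) and regulators and STARD4 (purple), and the line is the median of all genes in bins of GC content. In KYSE70 the line falls from 0.29 to -0.55, and MSMO1, INSIG1 and SREBF1 lie above it.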

How the data were processed

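Total RNA of 8 libraries was sequenced, and the deposited tables hold 1 FPKM value for every gene in each. TopHat2 2.0.9 and HTSeq 0.6.1 are listed in the submitters' processing notes, as is hg19. What each did, the annotation and the strand setting were not given in the sources used here. The unit FPKM was read from the deposited values. For all 30872 genes with values above 0 in at least 2 libraries, they could be written as whole multiples of 1 read's worth (within 0.02 of a whole number). For genes above 0 in few libraries such multiples can nearly always be found. The library totals were inferred from the values, as those at which gene lengths came out whole. The whole reads recovered were 99.8% of each inferred total. Reads without molecular identifiers cover counting error only.

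Sample titles set the groups. Libraries with the same number share a cell line, which makes them pairs, and the line was kept as a block. Genes with a mean of at least 1 FPKM (14311) were fitted as log2(FPKM + 1) with limma 3.58.1 (trend) in R 4.3.3, with p-values adjusted by Benjamini and Hochberg over all of them. Cell line, delivery arm and their interaction were fitted with treated and control libraries of a line and arm as replicates (4 residual degrees of freedom), and overexpression and knockdown with a term for each of the 4 pairs (2 residual degrees of freedom). The labels name no separate cultures beyond the line. The p-values therefore reflect the spread among these libraries alone. For cell line, arm and interaction, this spread includes the differences between treated and control libraries. For overexpression and knockdown, it is how far the lines differ in the treatment change. Spread among repeat cultures of a line and group was not measured.

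The scripts were tested on simulated data with 200 changed genes of 14311. Of 2-fold changes, 77.3% were recovered for cell line and 80% for arm, and 0% for the interaction, overexpression and knockdown. Of 4-fold changes, 74.7% to 98.3% were. In the real data 66% of genes were called for cell line and 27.9% for arm. The simulated rates may therefore not carry over to those 2 comparisons. The members and lists were chosen with earlier results of these data known. All 30 members could be named; values in every library go to those called, to the same-sign members with the largest changes, and to SREBF1, SREBF2 and INSIG1. Alternatives changed the pseudocount (0.1), the filter, the scaling, the block and the libraries fitted, removed trends on GC content and length (loess, span 0.3), used voom on recovered reads, and left out each library in turn. GC content came from GENCODE release 29 on GRCh38, matched by gene identifier (29 of 30 members). Promoter sequences are RefSeq's on GRCh38.p14, matched by symbol (26 of 30 members); none from chromosome 8 is printed.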

Additional observations from a re-analysis of the deposited data

Results flagged for a closer look

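Differences between the lines under the same contrast drew attention to 2 members. DHCR7, the last enzyme of cholesterol synthesis by way of 7-dehydrocholesterol, had an arm difference (lentiviral minus plasmid) that was higher by 1.11 on the log2 scale in KYSE450 than in KYSE70 (SE 0.23, limma interaction test, adjusted p = 0.0311). In KYSE70 both lentiviral libraries, at 61.5 and 50.5 FPKM, lay below both plasmid libraries, at 114 and 110 FPKM, and in KYSE450 the arms overlapped.

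PMVK, the phosphomevalonate kinase, differed from its control by -1.08 under knockdown in KYSE70 and by 0.53 in KYSE450, and this difference between the lines was not tested. After removal of the GC and length trends, the values were -0.79 and 0.52. The KYSE70 knockdown library has the highest mitochondrial share of the 8, 8.63%, and the part of this in the PMVK difference was not tested.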

How the results depend on the processing

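Counts of members called lower in the lentiviral arm moved between settings, against 9 with 27.9% of all genes called. The count was 5 without a filter (7.98% of all genes called), and with no replicate block, so without the pairing by line, it was 0 (0.0699%). With the controls compared with each other, in a fit that kept all 8 libraries, the count was 0 (0%). In settings that drop 4 of the 8 libraries it was 0 in KYSE70 alone (0%) and 5 in KYSE450 alone (with 1 higher there, 21.5%). In KYSE450 alone the arm difference of DHCR7 reversed, at 0.12 (limma adjusted p 0.565). The cell line median of sterol enzymes was -0.06 with a mean of at least 5 FPKM (29 members tested), and 8 members were lower in KYSE450 in the lentiviral arm alone (39.2% of all genes called, against 66%). With the 4 libraries of the lentiviral arm alone and the block, knockdown called 1 member higher (0.259%). The interaction of line and arm called 0 members higher without a filter (0.331% of all genes called), and 5 higher and 1 lower with GC and length trends removed (10.8%). The cause was not tested.

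Leaving out each library in turn, cell line called 10 to 13 members higher and 12 to 16 lower. Of all genes, 56.6% to 74.3% were called then. Sterol medians were 0.09 to 0.30 and fatty acid medians -0.83 to -0.46. The arm called 0 to 2 higher and 4 to 16 lower (medians -0.32 to -0.20 and -0.28 to -0.16), with 11.4% to 50.8% of all genes called. With any 1 lentiviral-arm library left out, overexpression called 0 and 0 (0.0699% to 0.0839% of all genes called). The overexpression medians were -0.18 to 0.02 and -0.14 to -0.10. With any 1 plasmid-arm library left out, knockdown called 1 member higher and 0 lower (0.252% to 0.286% of all genes called). Leaving out a library of the lentiviral arm leaves 1 pair, assumed to vary like the others, so its counts are not given. The knockdown medians were -0.12 to -0.03 and -0.17 to 0.14. The interaction called 0 to 8 higher and 0 to 4 lower, the highest counts without the KYSE70 lentiviral control. Of all genes, 36.6% were called in that fit, against 0.252% to 14.4% without any other 1 library. Depth limits CYP51A1 most, with 47 reads in its lowest library.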

Other observations

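Other genes of the same pathways, from 4 lists, add to the arm comparison. The genes that process SREBP proteins had 2 of 4 higher in the lentiviral arm and 0 lower (limma, adjusted p under 0.05): INSIG2, a partner of INSIG1 in retention, at 0.65 (SE 0.17), and MBTPS2, the protease of the second SREBP cleavage, at 0.49 (SE 0.09). Of 13 genes of sterol uptake, storage and transport that were tested, 2 were higher and 1 was lower: VLDLR, a lipoprotein receptor, at 1.19 (SE 0.16), the lysosomal lipase LIPA at 0.57 (SE 0.15), and the lysosomal sterol binder NPC2 at -0.38 (SE 0.12). Of 6 genes of the LXR receptors and their targets, 0 were called by limma and 1 had an unadjusted p under 0.05. Of all genes, 6023 of 14311 had an unadjusted limma p under 0.05. Of 23 further fatty acid genes tested, 5 were higher and 0 lower. Among them were CPT1A, which admits fatty acids to mitochondria, at 0.69 (SE 0.16), and DGAT2, which makes triglycerides, at 0.57 (SE 0.11). The others were FADS3 at 0.41 (SE 0.10), ELOVL5 at 0.38 (SE 0.09) and ACSL4 at 0.34 (SE 0.10). FADS3 thus went opposite to FADS1 and FADS2. The CPT1A difference was 0.09 in KYSE70 and 1.28 in KYSE450, and that of DGAT2 was 0.87 and 0.28. Over all genes 19% were higher and 8.95% lower.

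Between the lines, 12 of the 23 further fatty acid genes were lower in KYSE450 and 4 were higher (limma), where 32.3% of all genes were lower and 33.8% higher. ACSL4, which activates long polyunsaturated fatty acids, was at -2.68 (SE 0.10), CPT1A at -2.04 (SE 0.16), and DGAT2 at -1.59 (SE 0.11); ACSS2, which makes acetyl-CoA from acetate, was at 1.08 (SE 0.15). MBTPS2 was lower in KYSE450 by -1.96 (SE 0.09) and MBTPS1, the protease of the other cleavage, higher by 0.56 (SE 0.10).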
